A study of Mus musculus with 29 samples.

Results

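The genes described here are 10 that act when cells enter and pass through mitosis. They were chosen by symbol from the deposited gene tables, which list 35199 genes, and all 10 passed the filter on low values in every comparison. Cdk1 is the kinase that drives entry into mitosis, and Ccnb1, Ccnb2 and Ccna2 encode the cyclin B1, cyclin B2 and cyclin A2 partners that switch it on. Plk1 and Aurka encode kinases that build the spindle, Aurkb is the kinase of the chromosomal passenger complex, and Bub1 is a kinase of the spindle checkpoint. Top2a untangles DNA before chromosomes separate, and Mki67 encodes a protein of the surface of mitotic chromosomes that is used as a stain for cycling cells.

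These transcripts are low in resting cells, are made late in the cycle and are removed afterwards, so in bulk RNA their levels follow how many cells are close to division. The urothelium, the lining of the bladder, renews slowly in health, with basal progenitors below and umbrella-like luminal cells above, and it divides rapidly after injury. In bulk samples, fewer dividing cells and less RNA per dividing cell cannot be told apart.

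The data are RNA-seq libraries of mouse bladder, 29 in all. In the mutant, called K5VP16;Pparg, a tamoxifen-inducible Cre driven by the Krt5 promoter switches on, in basal cells, an always-active Pparg fused to the VP16 activator from the Rosa26 locus. Pparg is a nuclear receptor of urothelial and fat cell differentiation. For the first comparison, tamoxifen was given 3 times within 1 week, without carcinogen. Cells carrying the Gfp lineage label were sorted 4 days after the last dose. They gave 4 control libraries labelled wild type and 5 mutant libraries labelled K5VP16;Pparg+/-. The controls carried the Cre and the mTmG reporter. Mice were 8 to 12 weeks old at induction. The tumor libraries came from laser-captured frozen sections of mice given 0.05% of the carcinogen BBN in water, labelled 5 months of BBN and 4 months after induction. They comprise 3 basal tumors labelled wild type, and from K5VP16;Pparg+/- mice 3 luminal tumors, 3 upper luminal domains of mixed lesions and 3 basal-like domains of such lesions. A last table holds 4 untreated wild-type libraries and 4 from wild-type mice after 1 month of BBN. Here libraries are named by group and a letter in the order of the table's columns, and values are the authors' DESeq2-normalized counts. These counts are not given per base of transcript, so levels are compared between libraries and not between genes. The labels do not tie captured regions to animals, and p-values measure the spread between these samples.

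Every table was scaled on its own, and each comparison was made within 1 table. The 4 sorted control libraries fell into 3 with high Y-linked transcripts (a mean of 11.05 to 11.11 on the log2 scale over 4 genes) and control a, at 5.59, whereas the 5 mutants lay between 5.16 and 5.91. The 4-day genotype therefore cannot be told apart from sex, except through control a. Every tumor library was high in Y-linked transcripts. Of the markers for the labelled tissue, 6 epithelial genes had a mean of at least 12.48 on the log2 scale in every library of these comparisons, and 9 basal urothelial genes of at least 10.37, although Krt16 was at 0 in every 4-day control.

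Promoters of the members were read because the 10 transcripts varied together in the 4-day table, and because mitotic genes are known to share elements there. The CCAAT box is bound by the factor NF-Y, and the cell cycle genes homology region (CHR) is bound by complexes that hold these genes off in resting cells and raise them before division. Windows of 300 bases, 250 before and 50 after the transcription start, came from RefSeq (build GRCm38.p6) and were present for 8 members, all except Ccna2 and Aurkb. Both strands were searched for CCAAT and for 2 forms of the CHR, TTTGAA and TTCGAA, the latter its own reverse complement. CCAAT was found in 8 of 8 windows, against 37.4% of all 32851 windows, and TTTGAA in 6 of 8 against 17.9%. TTCGAA was found in Bub1 and Top2a, against 1.56% of all windows, so 7 of 8 held a CHR form with a CCAAT, against 7.52%. The exception was Ccnb1, whose window held a pair of CCAAT boxes and neither CHR form. Other forms of the CHR were not searched, so this does not show that Ccnb1 lacks the element. Shown are the promoters of Cdk1 and of both its B-type cyclins, which differ in the CHR forms searched. The promoter of Top2a, the member called in both comparisons with basal tumors, is shown too. They are written 5′ to 3′ along the gene, with the CCAAT and CHR letters of either strand in capitals.
Cdk1: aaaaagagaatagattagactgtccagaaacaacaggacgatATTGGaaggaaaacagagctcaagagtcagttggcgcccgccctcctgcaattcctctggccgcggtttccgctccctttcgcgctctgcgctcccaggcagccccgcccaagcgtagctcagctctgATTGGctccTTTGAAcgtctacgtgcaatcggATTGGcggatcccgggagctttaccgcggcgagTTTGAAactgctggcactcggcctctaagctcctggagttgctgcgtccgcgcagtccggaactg
Ccnb1: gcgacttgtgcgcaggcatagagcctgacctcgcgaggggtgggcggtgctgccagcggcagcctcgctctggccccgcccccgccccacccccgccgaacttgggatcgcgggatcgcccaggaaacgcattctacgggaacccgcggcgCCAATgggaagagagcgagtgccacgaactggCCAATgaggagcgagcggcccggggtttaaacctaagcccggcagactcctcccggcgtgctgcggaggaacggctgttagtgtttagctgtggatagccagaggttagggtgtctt
Ccnb2: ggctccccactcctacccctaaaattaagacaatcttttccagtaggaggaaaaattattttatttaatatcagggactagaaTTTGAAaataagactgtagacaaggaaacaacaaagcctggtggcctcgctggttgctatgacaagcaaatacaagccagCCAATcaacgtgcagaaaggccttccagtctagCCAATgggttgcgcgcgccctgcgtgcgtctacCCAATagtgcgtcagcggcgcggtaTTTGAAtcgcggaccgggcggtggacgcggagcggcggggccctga
Top2a: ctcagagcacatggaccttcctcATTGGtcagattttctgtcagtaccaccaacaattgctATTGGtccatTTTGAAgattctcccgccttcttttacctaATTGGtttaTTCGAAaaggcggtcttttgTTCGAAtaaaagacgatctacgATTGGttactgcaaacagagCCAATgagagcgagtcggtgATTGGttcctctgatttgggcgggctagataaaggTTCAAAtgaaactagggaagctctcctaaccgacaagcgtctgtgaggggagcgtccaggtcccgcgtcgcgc

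In this build the windows lie on the minus strand at chr10:69352863-69353162 (Cdk1), chr13:100786437-100786736 (Ccnb1), chr9:70421505-70421804 (Ccnb2) and chr11:99024140-99024439 (Top2a). Each spans a transcription start, with its last 50 bases downstream of it. For Cdk1, Ccnb1 and Ccnb2 this start is the end of the annotated gene span, whereas the Top2a span, which ends at 99024199, begins upstream of the start used for the window. Some CCAAT boxes stood about equally far apart: 32 bases from the first base of one to the next in Ccnb1, 33 and again 33 in Ccnb2, and 32 between the pair nearest the start in Cdk1. Other spacings differed, with 128 bases to the far box in Cdk1 and 20 to 51 in Top2a. Ccnb1 has them 99 and 67 bases before the start, and the Top2a window held 6 CCAAT and 4 CHR matches. These matches are letters in a window and were not tested for binding.

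**Figure D1:**
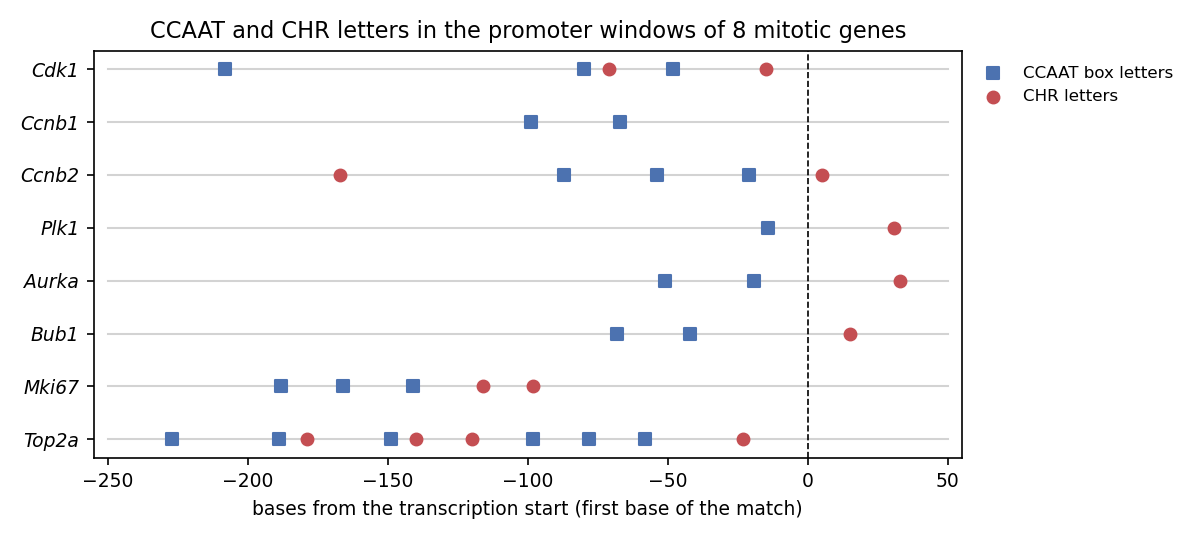
Positions of CCAAT (squares) and CHR (circles) letters in the 300-base windows of 8 mitotic genes, in bases from the transcription start (dashed line). CCAAT stood upstream of the start in 8 of 8 windows, and Ccnb1 alone had neither of the CHR forms searched.

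The first comparison set the mitotic genes of mutant basal cells against those of controls, 4 days after the last tamoxifen dose. All 10 had a higher mean in mutants, with log2 fold changes from 1.54 for Top2a to 2.76 for Aurkb and a median of 2.22, against a median of 0.0045 over all 16413 genes tested. None of the 10 passed the test (limma, adjusted p between 0.0673 for Ccnb2 and 0.139 for Aurka), although 10 of 10 had an unadjusted p under 0.05. Over all genes, 1.77% were called higher in mutants, and 3418 had an unadjusted p under 0.05.

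Cdk1 stood at 152, 171, 97.7 and 69.6 normalized counts in controls a to d and at 1873, 600, 504, 364 and 123 in mutants a to e. Mutants a to d lay above every control, and mutant e lay within the control range. The log2 fold change was 2.05 (SE 0.65, adjusted p = 0.113). Its cyclin partner Ccnb1 stood at 92.4, 387, 123 and 42.8 in controls and at 2388, 775, 561, 489 and 300.5 in mutants. Here control b, the highest, overlapped with mutant e, and the log2 fold change was 2.54 (SE 0.68, adjusted p = 0.0777). Ccnb2 was between 27.9 and 346 in the controls and between 264 and 1371 in the mutants. It had the smallest adjusted p of the 10 at 0.0673 (log2 fold change 2.60, SE 0.66). A processed copy, Ccnb2-ps, may share reads with it, but was listed at 25.5 to 76.0 across these libraries and was highest in control b. Ccna2 was between 92.1 and 296 in the controls, and mutants held 209 to 2015 (log2 fold change 1.87, SE 0.58, adjusted p = 0.109).

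Of the mitotic kinases, Aurkb was the only member whose groups did not overlap, as was so for 4.67% of all genes tested in that direction. It stood at 65.1, 116, 48.4 and 16.8 in controls and at 1627, 438, 294, 194 and 119 in mutants. Its log2 fold change was 2.76 (SE 0.75, adjusted p = 0.0799). The lowest mutant exceeded the highest control by little. Plk1, which triggers mitotic entry and spindle assembly, was between 28.7 and 261 in the controls, and mutants held 244 to 1634 (log2 fold change 2.28, SE 0.68). Aurka ranged from 71.4 to 183 and from 160.2 to 1315 (log2 fold change 1.61, SE 0.55). The checkpoint kinase Bub1 was at 9.67, 34.1, 16.1 and 11.5 in controls and at 515, 128, 64.2, 70.4 and 33.2 in mutants. Its log2 fold change was 2.59 (SE 0.72, adjusted p = 0.0825), with mutant e just under control b.

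Mki67 stood at 149, 416, 140.3 and 97.8 in controls and at 2942, 991, 662, 624 and 216 in mutants. Its log2 fold change was 2.15 (SE 0.67, adjusted p = 0.108). Top2a had the smallest difference, with 312, 275, 328 and 174 in controls and 2266, 1042, 633, 585 and 314 in mutants (log2 fold change 1.54, SE 0.49). The rank of the libraries was nearly the same from gene to gene. Mutant a was the highest mutant for 10 of 10 members and mutant e the lowest for 10 of 10, and control b was the highest control for 9 and control d the lowest for 9. As a description over 9 libraries, Pearson's r between pairs of members ran from 0.85 to 0.99 with a median of 0.96, and from 0.67 to 0.99 once group means were removed.

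**Figure D2:**
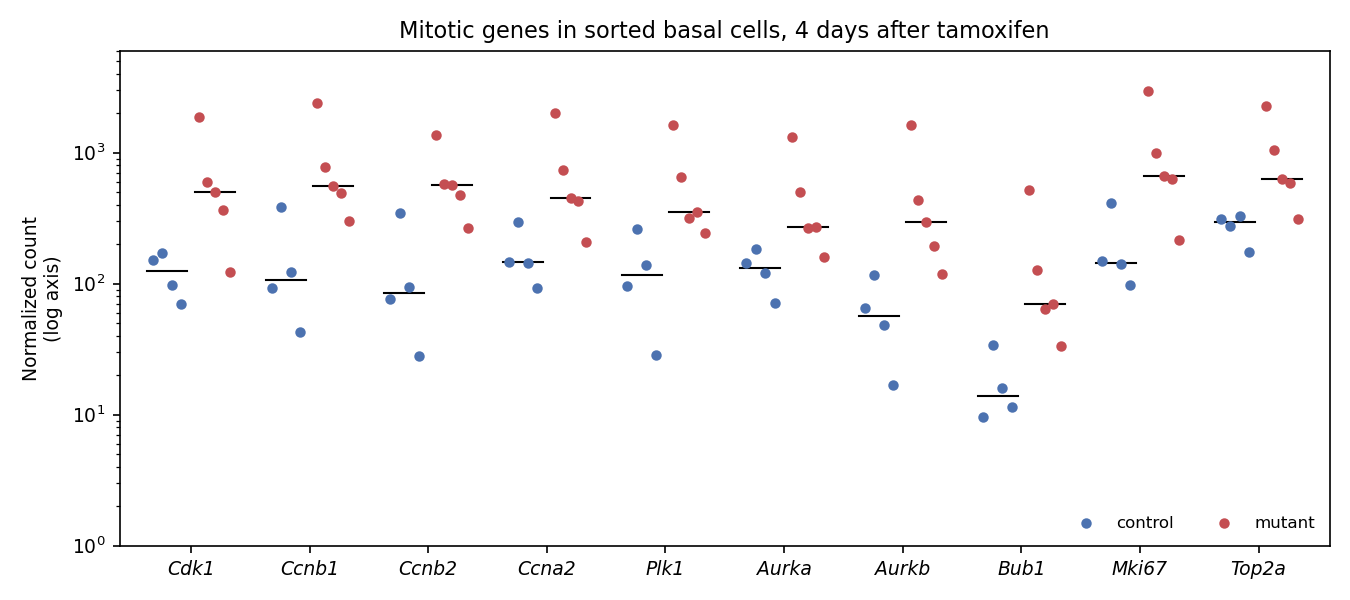
Normalized counts (log axis) of the 10 genes in each sorted library, controls in blue and mutants in red, with bars at group medians. Heights are not comparable between genes. Mutant a is the leftmost and highest red point of every gene, up to 2942 for Mki67, and mutant e the rightmost and lowest.

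Most other genes of division had a positive log2 fold change, and few passed the test. Over all 16413 genes tested, 8286 had a log2 fold change above 0, 290 rose and 177 fell. Of 157 tested genes from 7 lists of mitotic entry, checkpoint, kinetochore, spindle, cytokinesis, anaphase and chromosome condensation genes, 130 had a log2 fold change above 0, the median was 0.66, and 7 rose while 1 fell. With sex as a term none of the 157 was called, and in the table of 3 against 3 libraries 1 was. Those that rose were Bub1b, the checkpoint partner of Bub1 (log2 fold change 3.49, SE 0.74, adjusted p = 0.0385), the spindle genes Fam83d (3.25, SE 0.50, adjusted p = 0.0138) and Kif20a, the kinetochore genes Ska1 (2.78, SE 0.55, adjusted p = 0.0299), Nuf2 and Hjurp, and Anln of the cleavage furrow. Hjurp, the chaperone of centromeric histone, had the smallest adjusted p, 0.0032, and went from 3305 ± 338 (SD, n = 4) to 6478 ± 804 (SD, n = 5). The one that fell was Cenpm, a kinetochore gene, from 1593 to 471. Spindle and motor genes had a median of 1.44 over 30 genes and cytokinesis genes of 1.51 over 14, whereas anaphase genes had a median of 0.089 over 20 and condensation genes of 0.19 over 21. Leaving out 1 library at a time, Bub1b lost its call in 6 of 9 runs, Ska1 in 5 and Fam83d in 0. The motor Kif18b had the largest value, 3.88 (SE 1.00, adjusted p = 0.0682).

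Further values from the fixed lists were for Cdkn3 (2.49, adjusted p = 0.128) and Ccnf (2.01, adjusted p = 0.12) of mitotic entry, Knl1 (2.31, adjusted p = 0.11) of the checkpoint and Ndc80 (3.06, adjusted p = 0.119) of the kinetochore. The fixed list of passenger complex and cytokinesis genes gave Pif1 (2.97) and Birc5, the survivin subunit of the passenger complex (2.58, adjusted p = 0.0681). For anaphase they were Cdc20 (2.20, adjusted p = 0.0673) and Ube2c (2.19). Ncapg (2.49) and Cdca5 (2.19) of chromosome condensation completed them, and none of these passed the test. Of 51 S phase genes, which copy DNA, 47 lay above 0 with a median of 0.62, and 1 rose, E2f2 (log2 fold change 1.27, SE 0.29, adjusted p = 0.0471). E2f8 (2.24) and Brca1 (1.76) had the largest values among them. None of 19 genes that brake the cycle passed the test, and their median was 0.067, with Gas1 at 1.12 and Cdkn2c at 1.02. Cdkn1a, a cell cycle inhibitor, is named outside this rule and after its value was seen. By RNA-seq of sorted cells, tested with DESeq2, and by staining, the study reported it higher in mutants. The study read this as daughter cells leaving the cell cycle. Here control libraries held 4746 ± 2208 (SD, n = 4) and mutant libraries 9136 ± 3693 (SD, n = 5). In limma the log2 fold change was 0.98 (SE 0.36, adjusted p = 0.165). Whether the mitotic values bear on such an exit was not tested.

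The 5 genes whose log2 values followed the mean of the 10 most closely over the 9 libraries were Ncapg (r = 0.996), Kif11 (0.995), Ube2c (0.993), Birc5 (0.991) and Cdca3 (0.989). Of the 100 most alike genes, 50 were in the mitotic lists, which hold 156 of the 16403 genes compared, and 1 was in the S phase list. The S phase list was highest in mutant a (mean log2 value 10.55), then in mutant b (9.43) and control a (9.04), and lay between 7.98 and 8.48 in the other 6 libraries. Control a thus had more S phase transcript than mutants c, d and e, but less of the 10 mitotic genes (6.61 against 8.54, 8.39 and 7.43).

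Markers of other cells were also compared with the genotype. The summed level of the 10 fibroblast markers was 12126 to 85167 in the controls, while the mutants had 30979 to 218387. Of these, 8 of 9 tested lay above 0 with a median of 2.04, 7 had an unadjusted p under 0.05 and 1 was called. The summed level of 8 smooth muscle markers was 4329 to 8578 in the controls, while the mutants had 3151 to 7356. Singly, 7 of these 8 lay above 0 with a median of 1.44, 4 lay apart on the higher side, none was called and none was at 0 in any library. Of 10 genes of dissociation stress, such as Fos and Jun, 9 lay above 0 with a median of 0.65 and 1 was called. Mutant a, the highest for the mitotic genes, was not the highest for summed fibroblast markers (84872), and mutant c, which was (218387), held 504 of Cdk1. Leukocyte markers summed to 878 to 2888 in mutants and 1140 to 2091 in controls. The part of these cells in the result was not tested.

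Control a, the only control low in Y-linked transcripts, lay under all 5 mutants for 9 of 10 members, the exception being Cdk1, and 1 library allows no test within that sex. With sex as a term, the median log2 fold change of the 10 was 2.35 and none was called, and 26 of all genes were. Pparg itself stood at 9705 ± 266 (SD, n = 4) in control libraries, where mutants had 7622 ± 1223 (SD, n = 5; log2 fold change -0.36, SE 0.12, adjusted p = 0.126). All 5 mutants (6111 to 9032) lay below all 4 controls (9381 to 9999), so the level of this symbol did not check the mutant label. Whether transcripts of the transgene were counted under it is not given in the sources used here. In a second deposited table with 3 controls (b, c and d) and 3 mutants (b, c and e), the 10 log2 fold changes ran from 1.24 to 2.41 with none called.

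**Figure D3:**
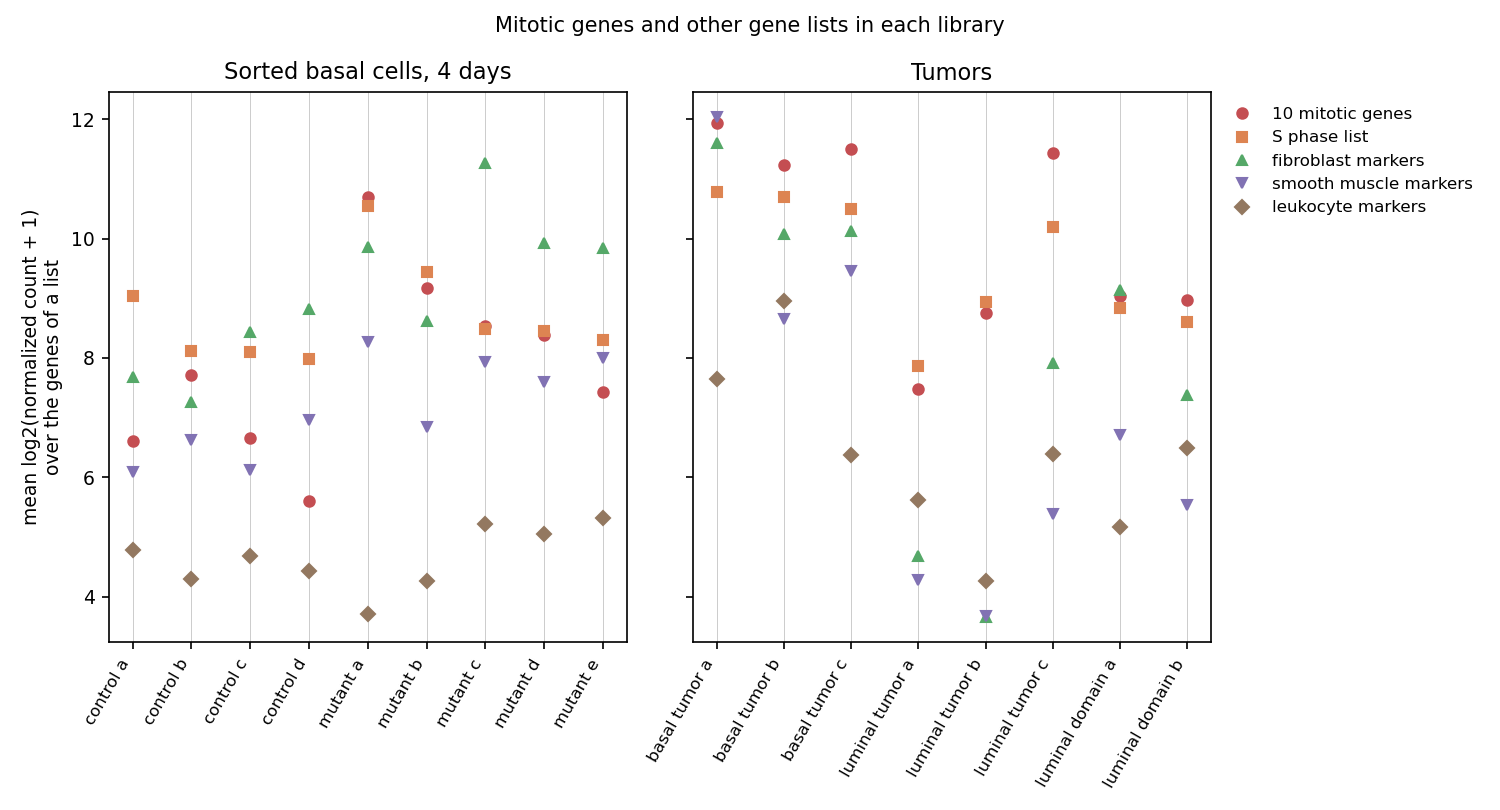
Mean log2(normalized count + 1) of the 10 mitotic genes and of 4 gene lists in each library of the 4-day table (left) and of the tumor table (right). The mitotic genes of luminal tumor c (11.44) lie beside those of basal tumors (11.22 to 11.93), while its fibroblast markers (7.91) lie below theirs.

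In tumors the same genes were compared between luminal tumors, which formed with the activated Pparg, and basal tumors, which formed without it. All 10 had a lower mean in luminal tumors, with log2 fold changes from -1.24 for Aurka to -3.93 for Ccnb1 and a median of -2.21, where all 15357 genes had a median of -0.11. Top2a fell (log2 fold change -2.81, SE 0.53, adjusted p = 0.0364), and it was the only member called, against 0.938% of all genes called lower. That call was lost without a trend in the variance, without the filter on low values or with 3 against 3 libraries alone. The groups lay apart for Top2a and Mki67 alone, as for 11.6% of all genes in that direction.

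Top2a stood at 11565, 6678 and 6841 in basal tumors a to c and at 639, 909.8 and 2642 in luminal tumors a to c. Every luminal tumor was below every basal one, and luminal tumor c was the nearest. Mki67 was likewise apart, with 5589.9, 6901 and 4767 against 690.3, 805 and 3142 (log2 fold change -2.24, SE 0.59, adjusted p = 0.092). Cdk1 stood at 6579, 6041 and 5713 in basal tumors and at 111, 1326 and 6528 in luminal tumors. The 3 luminal tumors thus spanned from far below the basal range to inside it, and the log2 fold change of -2.62 had an SE of 1.16 (adjusted p = 0.268). As a ratio of the highest to the lowest luminal tumor, Ccnb1 showed the widest spread. It stood at 137, 35.7 and 4179 in luminal tumors against 6544, 3005 and 3772 (log2 fold change -3.93, SE 1.44, adjusted p = 0.193).

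Luminal tumor c was the highest luminal tumor for 10 of 10 members. Its mean log2 value over the 10 was 11.44, where basal tumors were at 11.22 to 11.93 and luminal tumors a and b at 7.48 and 8.75. The lower of the other two changed from gene to gene, tumor a for 7 members and tumor b for 3. For Aurka, tumor a held 96.7, tumor b 1325 and tumor c 3672, against 2642, 1005 and 2348 in basal tumors, so that the direction rested on tumor a. Without luminal tumor a its log2 fold change was 0.26, a reversal, and without luminal tumor c 7 members were called (Ccna2, Ccnb1, Ccnb2, Cdk1, Mki67, Plk1 and Top2a), with a median of -3.07. In that run 492 of 16414 genes were called lower. Leaving out any of the other 5 basal or luminal tumor libraries left no member called, and 3 to 211 of all genes. Values for the remaining members were -1.73 for Ccnb2 (SE 0.85), -2.80 for Ccna2 (SE 1.16), -1.89 for Plk1 (SE 0.79), -2.19 for Aurkb (SE 1.12) and -1.81 for Bub1 (SE 0.98).

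No other mitotic gene of 157 passed the test in limma, 134 lay below 0, the median was -1.12 and 46 had an unadjusted p under 0.05, as did 2820 of all 15357 genes. The 2 largest of each list were Mybl2 (-4.29) and Fbxo5 (-3.56) of mitotic entry, Kntc1 (-2.62) and Bub1b (-2.58) of the checkpoint, Cenpe (-3.16) and Cenpi (-2.81) of the kinetochore, and Kif20a (-4.33) and Troap (-4.08) of the spindle. Cytokinesis gave Ect2 (-3.53, adjusted p = 0.0944) and Psrc1 (-2.76), anaphase Espl1 (-2.51) and Cdc20 (-2.25), and condensation Ncapg (-3.28) and Ncapd2 (-2.65). Of 51 S phase genes 49 lay below 0 with a median of -1.38 and none called, among them Exo1 (-5.97, SE 2.11) and E2f2 (-5.58, adjusted p = 0.0767). The brakes Gas1 (-5.66) and Cdkn1c (-3.12) did not pass. Pparg rose from 80.3 ± 59.4 (SD, n = 3) to 6476 ± 2606 (SD, n = 3), with an adjusted p of 0.0136, and that call was lost without luminal tumor a or b, with an adjusted p of up to 0.0879. Luminal tumor c, high in the mitotic genes, had the lowest Pparg of the luminal tumors (3579 against 7216 and 8632) and was still far above the basal tumors (13.0 to 126).

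Markers of other cell types were compared too. The 10 fibroblast markers summed to 48903 to 76271 in basal tumors and to 246 to 17711 in luminal tumors, and 5 of 9 tested were called lower. The 8 smooth muscle markers summed to 8084 to 53798 and to 690.4 to 2561, with Des at 0 in every luminal tumor, and leukocyte markers to 37062 to 150490.0 and to 960.0 to 19793. Of 8 endothelial markers, 8 lay below 0, 4 lay apart and none was called. The mean of 6 epithelial markers was 12.48 to 13.92 on the log2 scale in basal and 15.02 to 15.90 in luminal tumors, and 2 of the 6 rose. All 9 basal urothelial markers lay below 0 (median -2.34), and 3 fell. All 12 luminal urothelial markers lay above 0 (median 6.52), and 6 rose. The most fibroblast-rich luminal tumor was also tumor c (17711), and the part of these cells in the result was not tested. As a description over the 8 libraries of this table, the genes most like the mean of the 10 were Tuba1b (r = 0.996), Hnrnpll (0.988), Tpx2 (0.986), Pclaf (0.985) and Cenpe (0.983). Of the 100 most alike, 24 were in the mitotic lists (156 of 15347 genes compared) and 5 in the S phase list, and pairs of members had r from 0.56 to 0.99, or from 0.33 once group means were removed. In the table of basal tumors with luminal domains and in that of luminal with basal-like domains, of 6 libraries each, r within groups ran from -0.89 (Plk1 and Mki67) and from -0.52 (Plk1 and Top2a), with medians of 0.44 and 0.51.

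**Figure D4:**
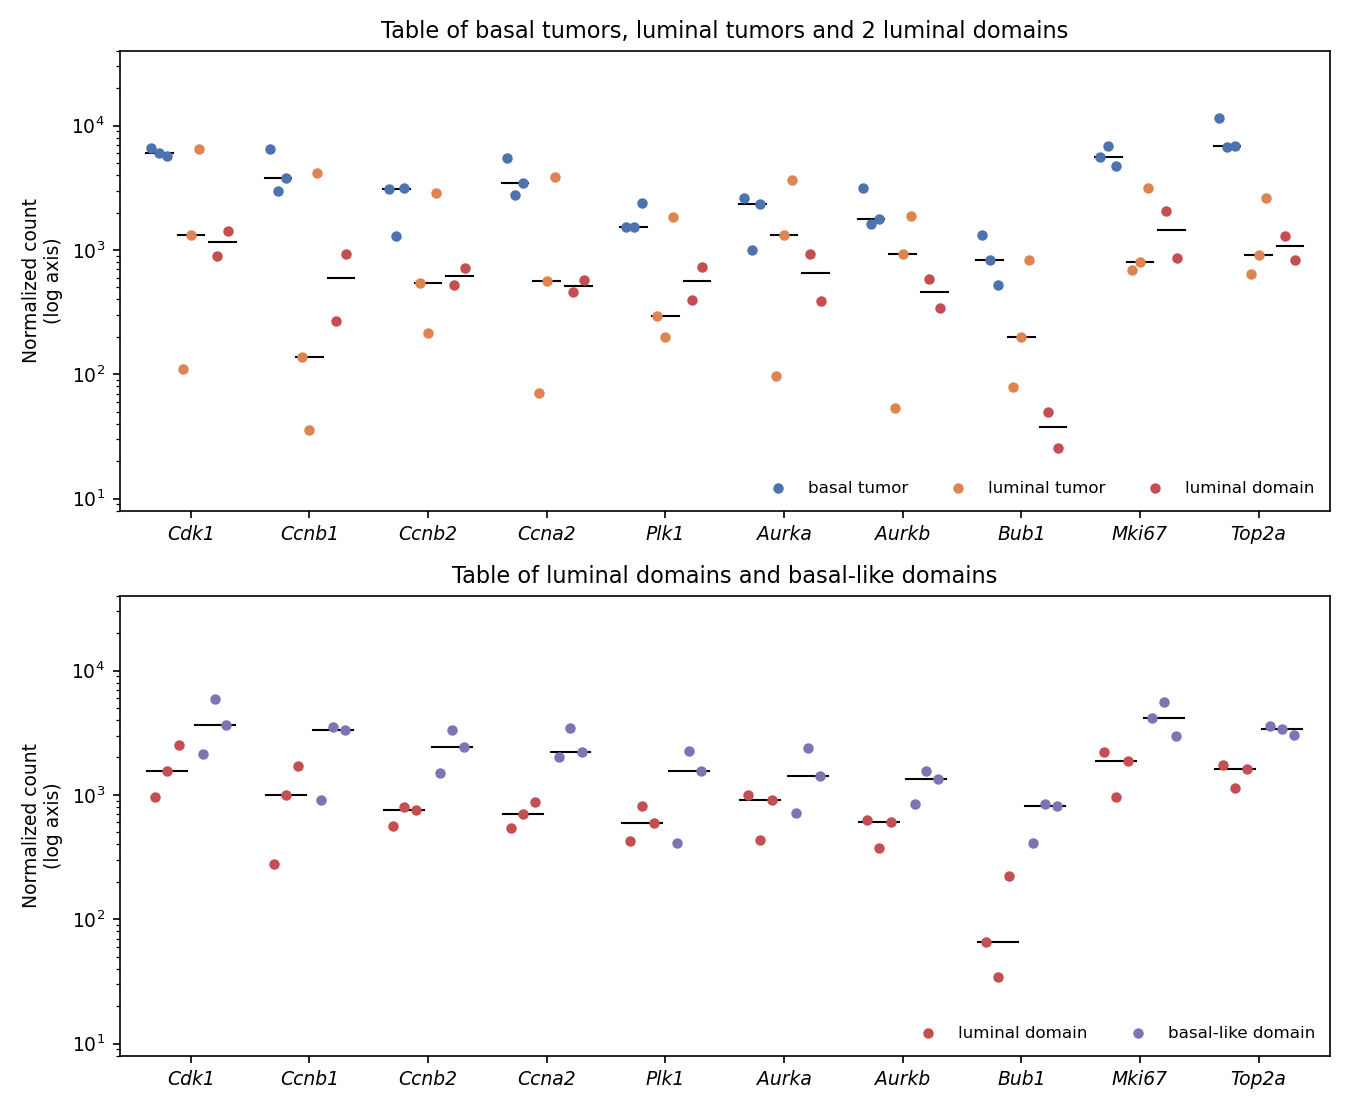
Normalized counts (log axis) of the 10 genes in tumor libraries, in a table of basal tumors, luminal tumors and 2 luminal domains (top) and a separately scaled table of luminal and basal-like domains (bottom), with bars at group medians. The third and highest orange point of every gene is luminal tumor c, for Cdk1 at 6528.

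The upper luminal domains of mixed lesions gave a tighter contrast with the same 3 basal tumors, rescaled in another table. All 10 members lay lower in luminal domains with no overlap, where 12.8% of all 14921 genes did so, and 4 fell by the test, against 0.824% of all genes called lower. These were Top2a, Ccna2, Cdk1 and Mki67. Without a trend in the variance 0 members were called, and without the filter on low values 2 were, Ccna2 and Top2a. The median log2 fold change of the 10 was -2.06 against 0.0097 over all genes. The basal tumors are shared with the luminal tumor comparison, so the 2 are not independent.

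Top2a stood at 13726, 7771 and 8028 in basal tumors and at 1567, 1023 and 1446 in luminal domains a to c, a log2 fold change of -2.84 (SE 0.33, adjusted p = 0.0203). Ccna2, the cyclin of DNA synthesis and of early mitosis, stood at 6452, 3146 and 4027 against 546, 690.4 and 876 (log2 fold change -2.65, SE 0.38, adjusted p = 0.0258). In both genes the highest luminal domain was well under the lowest basal tumor. Cdk1 stood at 7002, 6304 and 6012 against 960.0, 1555 and 2494 (log2 fold change -2.05, SE 0.38, adjusted p = 0.0392), and Mki67 at 5873, 7109 and 4952 against 2187, 938 and 1841 (log2 fold change -1.92, SE 0.38, adjusted p = 0.0461). In the table of the luminal tumors, domains a and b held 889 and 1422 of Cdk1 where luminal tumor c held 6528.

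Bub1 had the largest difference and did not pass. It was at 1667, 1022 and 649 in basal tumors and at 63.2, 33.0 and 214 in luminal domains, a log2 fold change of -3.74 (SE 0.86, adjusted p = 0.0697), with domain c well above the other two. Aurkb stood near the threshold at -2.07 (SE 0.44, adjusted p = 0.0547). Ccnb1 was at -2.46 (SE 0.66), Ccnb2 at -1.82 (SE 0.45), Plk1 at -1.68 (SE 0.42) and Aurka at -1.42 (SE 0.53), with adjusted p from 0.0816 to 0.188. Without basal tumor b, Ccna2 and Top2a were still called and Ccnb2 was too, and without basal tumor c Top2a alone was. No member was called without luminal domain a, b or c or without basal tumor a, where 0, 0, 3 and 22 of all genes were and the members' median stayed between -1.95 and -2.28.

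Among all 14921 genes tested, 7395 lay below 0, 1911 lay apart on the lower side and 123 fell. Of 157 other mitotic genes 137 lay below 0, 93 lay apart on the lower side and 16 fell, with a median of -1.38. Leaving out 1 library gave 0 to 11 calls, and without a trend in the variance there were 0. The spindle genes among them were Hmmr (-2.62, SE 0.41), Kif11 (-2.64), Kif18b (-3.43), Kif20b, Nusap1 and Tpx2, and the kinetochore genes were Cenpe, Cenpf, Sgo2a and Spc24. Birc5 of the passenger complex, Cdc20 (-2.28, SE 0.47, adjusted p = 0.0499) and Ube2c of the anaphase machinery, and the chromatin genes Ncapd2 (-3.01, SE 0.59), Ncapg2 (-2.75, SE 0.50) and Hmgb2 completed the 16. No gene of the mitotic entry or checkpoint lists passed, where the largest values were Cdc25c (-2.90) and Mybl2 (-2.55), and Kntc1 (-5.28, SE 1.59) and Spdl1 (-3.14). Further large values that did not pass were Nuf2 (-2.94), Sgo1 (-2.63, adjusted p = 0.0575), Kifc1 (-4.43), Troap (-3.86), Psrc1 (-4.03), Diaph3 (-2.73) and Espl1 (-4.36).

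All 51 S phase genes lay below 0, and 9 fell. They included the licensing genes Cdt1, Mcm3, Mcm4 and Mcm7, and Gmnn, which restrains licensing. The others were the cyclins Ccne1 (-3.31, SE 0.67) and Ccne2 (-3.86, SE 0.52, adjusted p = 0.0239), and Dnmt1 and Uhrf1, which copy DNA methylation. E2f2 (-4.26) and Exo1 (-4.20) did not pass. Of 20 brakes none passed, with Gas1 at -3.53 and Cdkn2a at -2.03, and the median was -0.17. Pparg rose from 85.9 ± 63.9 (SD, n = 3) to 4819 ± 695 (SD, n = 3; adjusted p = 0.0239). That call was lost in 4 of the 6 runs that left out 1 library (basal tumor a or any luminal domain), while the log2 fold change was 5.29 to 6.89 over the 6. The fibroblast markers summed to 50041 to 79784 in basal tumors and to 5852 to 32345 in luminal domains, and smooth muscle markers to 8504 to 59994 and to 2385 to 4221, with Cnn1 at 0 in every domain. Leukocyte markers summed to 38327 to 158315 and to 8894 to 24018. Of 8 endothelial markers 6 lay above 0 (median 0.75), and of 6 epithelial markers 5 did (median 2.49), with 4 apart and 1 called. All 9 basal urothelial markers lay below 0 (median -1.18), and 1 fell. All 12 luminal urothelial markers lay above 0 (median 5.31), and 4 rose. The part of all these cells in the result was not tested.

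In mixed lesions, 3 basal-like domains were compared with 3 luminal domains in an unpaired fit, since no label matches the columns by lesion. All 10 members had a higher mean in the basal-like domain, with log2 fold changes from 0.87 for Aurka to 3.02 for Bub1 and a median of 1.29, against 0.0093 over all 14874 genes. No member passed the test in limma, and no gene of the table did (0% called), while 757 genes and 7 of 10 members had an unadjusted p under 0.05. Without the trend in the variance, limma called 20 genes, no member among them. The groups lay apart for 6 members (Ccnb2, Ccna2, Aurkb, Bub1, Mki67 and Top2a), as for 5.62% of all genes in that direction.

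Ccna2 stood at 544, 696 and 883 in luminal domains and at 2010.5, 3429 and 2219 in basal-like domains a to c, a log2 fold change of 1.84 (SE 0.34, adjusted p = 0.652). Bub1 was at 65.1, 34.4 and 223 against 407, 843 and 811 (log2 fold change 3.02, SE 0.83, adjusted p = 0.789), and Top2a at 1732, 1145 and 1617 against 3609.5, 3370.1 and 3021 (1.17, SE 0.26, adjusted p = 0.652). Each basal-like library lay above each luminal one for these 3 genes. Mki67 was at 2206, 959 and 1879.6 against 4160.3, 5553 and 2987 (1.37, SE 0.38), and Ccnb2 at 559, 798 and 752 against 1499, 3343 and 2405 (1.72, SE 0.38). Aurkb ranged from 377 to 624 against 841 to 1548 (1.20, SE 0.41).

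The other 4 members overlapped, in each case through basal-like domain a. Plk1 was at 427, 808 and 594 in luminal domains and at 413.5, 2256 and 1568 in basal-like domains (0.94, SE 0.65), and Aurka at 998, 433 and 902 against 712, 2374 and 1421 (0.87, SE 0.54). Cdk1 ranged from 956 to 2512 against 2143 to 5924 (1.20, SE 0.47), and Ccnb1 from 278 to 1711 against 909 to 3491 (1.50, SE 0.76). Basal-like domain b was the highest for 9 members and domain a the lowest for 8. The luminal domain libraries are those of the comparison with basal tumors, so these contrasts share them.

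Among all 14874 genes tested, 7548 lay above 0 and 836 lay apart on the higher side. Of 157 other mitotic genes 123 lay above 0, 50 lay apart on the higher side and none passed, with a median of 0.65 and 31 with an unadjusted p under 0.05. The largest were Cdc25c (2.71) and Mastl (1.77), Kntc1 (3.17) and Zwilch (2.05), Nuf2 (2.23) and Dsn1 (-1.79), Kifc1 (4.14) and Troap (2.60). Pif1 (2.32), Psrc1 (2.23), Cdc20 (1.19), Espl1 (1.09), Cdca5 (1.84) and Ncaph (1.80) were the largest of their lists. S phase genes had a median of 0.66, with 49 of 51 above 0, E2f2 at 3.77 and Ccne2 at 1.97, and brakes one of 0.035, with Cdkn1c at -1.58 and Gas1 at 1.22. Pparg was at 4876 ± 680 (SD, n = 3) in luminal and 2819 ± 458 (SD, n = 3) in basal-like domains (log2 fold change -0.79, SE 0.24, adjusted p = 0.864). Fibroblast markers summed to 6088 to 33384 and to 15414 to 106407, smooth muscle markers to 2514 to 4481 and to 3318 to 9491, and leukocyte markers to 9069 to 24478 and to 6070.5 to 21183. Of 9 tested fibroblast markers 8 lay above 0 (median 1.57), as did all 9 basal urothelial ones (median 0.52). All 12 luminal urothelial markers lay below 0 (median -0.97), with 4 apart, and 5 of 6 epithelial ones did. No marker of these lists was called, and the part of all these cells in the result was not tested.

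**Figure D5:**
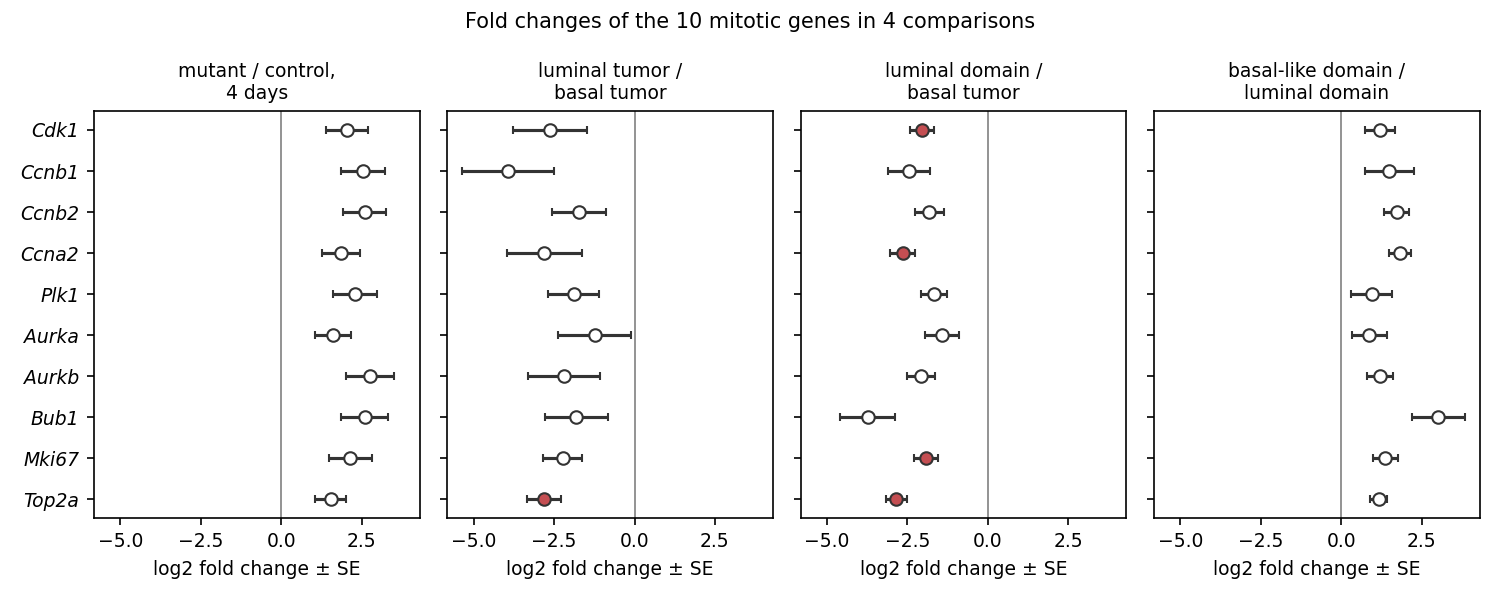
Log2 fold change ± SE of the 10 genes in 4 comparisons, red where the adjusted p was under 0.05. All 10 lie above 0 in the first and last panel and below 0 in both comparisons with basal tumors, where Top2a is called in each.

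In the table of untreated and BBN-treated wild-type urothelium, neither labels nor column names say which libraries were treated, so values are given with no comparison. The study reported more proliferation after BBN than without it, but the libraries were not assigned by such values. Over its 8 libraries Cdk1 ranged from 14.9 to 1762 normalized counts (median 205), Ccnb1 from 10.7 to 1622 (median 166), Ccnb2 from 13.1 to 1272 (median 154) and Ccna2 from 17.4 to 2025 (median 200.0). Plk1 ranged from 34.6 to 1067, Aurka from 63.4 to 646, Aurkb from 25.2 to 606 and Bub1 from 4.10 to 517. Mki67 had the widest range in counts, from 42.5 to 6904 (median 878), and Top2a ranged from 130.2 to 5083 (median 722). Library g was the highest for 10 of 10 members.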

How the data were processed

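Libraries were made with SMART-Seq v4 and Nextera XT. The authors quantified reads with kallisto 0.44.0, summed transcripts to genes with tximport, and deposited counts normalized with DESeq2 1.18 in each table separately. The signal in the deposited tables is thus a normalized count. Values were divided by factors that differ from gene to gene, so read counts and depth are unknown, and sums of 33516643 to 53904714 normalized counts per library are not depths. The transcript index is not given in the sources used here. Deposited lists of the authors' own fold changes and p-values were not used.

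A gene was tested if it had at least 10 normalized counts in a number of libraries equal to the smaller group. Tests were made on log2(value + 1) with limma 3.58.1 in R 4.3.3 (lmFit, eBayes with trend), adjusted over all genes by Benjamini-Hochberg at 0.05. This scale understates changes of low genes. The luminal tumor contrast was fitted with all 8 libraries of its table in 3 groups. "Rose", "fell" and "called" refer to this test. The code was tested on simulated data. Figures used Python 3.11.15, pandas 2.3.3 and matplotlib 3.10.9.

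Named genes were the 10 members, the 2 genes with the largest absolute log2 fold change of each of 9 lists (230 genes), Pparg, and the 5 genes most correlated with the members. Other called genes of the lists, and Cdkn1a, were named after their values were seen. Members and lists were chosen with earlier results of these data known. Alternatives were the pseudocount, the filter, the variance model, 2 scalings, array weights, a sex term, other tables or groupings, and leaving out each library.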

Additional observations from a re-analysis of the deposited data

Results flagged for a closer look

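In the sorted basal cells 22 sets of 4 or 5 libraries were checked for a library far from the rest by Dixon's ratio of gap to range, and 7 stood out on the scale of normalized counts. Chance gives about 1 in 20 for a single set, but these sets are the same libraries in genes that vary together, so the flags are not independent. On the log2 scale used for the tests, 0 of the 22 sets stood out, and the ratios of these 7 were 0.417 to 0.709. All of them were the highest library of a group. In mutants it was library a in each case: Cdk1 at 1873, where the next mutant held 600, Ccnb1 at 2388 (next 775), Ccnb2 at 1371 (next 581), Aurkb at 1627 (next 438), Bub1 at 515 (next 128) and Mki67 at 2942 (next 991). The ratios ran from 0.713 to 0.803 (5 libraries). In controls it was Mki67 in library b, at 416 where the next control held 149 (ratio 0.838, 4 libraries). Without mutant a the 10 log2 fold changes ran from 1.16 to 2.28 with none called, and without control b from 1.56 to 3.23 with Ccnb2 called.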

How the results depend on the processing

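No paired analysis was possible because the columns carry no replicate numbers: the titles of luminal and basal-like domains share numbers, but the columns could be matched to groups only. Over 116 pairs of a named gene and a comparison, log2 fold changes kept their direction in every alternative except Aurka in luminal tumors, which ran from -2.36 (without luminal tumor c) to 0.26 (without luminal tumor a) when 1 library was left out; in 84 cases a call was lost and in 24 gained, and the cause was not tested. At 4 days, 0 to 1 members were called when 1 library was left out (Ccnb2 without control b, Cdk1 without mutant e), and 2 to 13 other mitotic genes, where 8 were called with all libraries. The latter were 4 without a variance trend, 13 with array weights, 0 with a sex term and 1 in the table of 3 against 3. In luminal tumors 1 member was called; this became 0 without the filter, without the trend or with 3 against 3 libraries alone, and 2 with array weights or with all 5 luminal libraries as 1 group. Leaving out 1 library gave 0 to 7 members and 0 to 25 other mitotic genes, the highest without luminal tumor c. Other mitotic genes called there were 0, against 1 with pseudocount 5, robust variances or upper quartile scaling, and 2 with array weights or the 5 libraries as 1 group. In luminal domains 4 members and 16 other mitotic genes were called, 2 and 3 without the filter, and 0 and 0 without the trend. Leaving out 1 library gave 0 to 3 members and 0 to 11 other mitotic genes. In basal-like domains every alternative gave 0 for both. Upper quartile scaling moved the median log2 fold change of all genes to -0.19 in luminal tumors and -0.14 in luminal domains, with all 10 members still below 0. Read depth is unknown, which limits statements on low genes.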

Other observations

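The 8 libraries of the table of untreated and BBN-treated urothelium, which could not be assigned to their conditions, had the same 4 lowest libraries, a to d, for each of the 10 genes. Libraries a to d and libraries e to h are also the sides of the authors' own contrast, but no label says which side was treated. The order thus describes the values, which no label ties to the conditions. By staining and RNA-seq the study reported rare proliferating cells in untreated urothelium and widespread proliferation after BBN. Whether the 2 sets of libraries match this was not tested. Mki67 was listed at 118, 85.9, 42.5 and 73.9 normalized counts in libraries a to d and at 3822, 2392, 6904 and 1639 in e to h. Cdk1 was at 51.6, 21.2, 19.5 and 14.9 and then at 1030.2, 621, 1762 and 359, and Bub1 at 12.1, 6.07, 4.10 and 14.9 and then at 258, 183, 517 and 121. The fifth library from below exceeded the fourth by 13.9 times for Mki67, 10.7 times for Ccnb1, 8.21 times for Top2a and 8.12 times for Bub1. Aurka had no clear gap there, at 1.55 times, no wider than steps among the other libraries, with 105.5, 63.4, 102 and 139 in a to d and 439, 259, 646 and 215 in e to h. Pparg ran the other way, with 5993 to 7352 in libraries a to d and 2837 to 4793 in e to h. Library g, the highest for all 10 mitotic genes, had the lowest Pparg of the 8.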
